A study of Mus musculus with 18 samples.

Results

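The transcripts of 10 genes of T cells and cytotoxic lymphocytes were followed in the prostates of TRAMP mice. These were the T cell receptor and CD3 chains Cd3d, Cd3e, Cd3g and Trac, the coreceptors Cd4, Cd8a and Cd8b1, and the cytotoxic granule genes Gzma, Gzmb and Nkg7. The 10 were chosen by name and found by Ensembl gene identifier among the 55469 gene identifiers of the tables, and each matched 1 identifier. Total RNA of the ventral and lateral prostate lobes had been sequenced from 18 male C56NL/6N mice, 3 for each of 3 lines at 10 weeks and at 30 weeks of age. All 18 carried 1 copy of the TRAMP transgene, in which the Pb promoter drives the SV40 T antigens in prostatic epithelium. WT-TRAMP mice had wild-type Elac2. KO-TRAMP mice had lost exon 8 of Elac2 through Pb-Cre, which acts in prostate epithelium and leaves the gene intact in lymphocytes. A537T-TRAMP mice were homozygous for the A537T change of ELAC2 in the whole body, lymphocytes included. ELAC2 is the nuclease that removes the 3′ trailers of precursor tRNAs. The comparisons ask how each mutation altered the prostate transcriptome of TRAMP mice at each age.

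A T cell recognises antigen through the T cell receptor, whose alpha chain carries the constant region encoded by Trac, and passes the signal through the CD3 gamma, delta and epsilon chains. CD4 marks helper T cells and binds MHC class II, while CD8, a dimer of the CD8A and CD8B1 chains, marks cytotoxic T cells and binds MHC class I. Cytotoxic T cells and natural killer (NK) cells kill by releasing granules that hold the serine proteases granzyme A and granzyme B, and NKG7 is a protein of the membrane of these granules. In tumours the transcripts of these genes are widely read as a sign of lymphocyte infiltration. In bulk RNA, however, fewer cells of a type and less RNA per cell cannot be told apart.

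The libraries held between 9380174 and 14830104 recovered reads and are called by the numbers in the table headers: at 10 weeks, WT-TRAMP mice gave 1 to 3, KO-TRAMP mice 7 to 9 and A537T-TRAMP mice 4 to 6, and at 30 weeks, WT-TRAMP mice gave 10 to 12, KO-TRAMP mice 16 to 18 and A537T-TRAMP mice 13 to 15. The authors' normalized count of a gene is its read count, as estimated with Salmon, divided by a size factor set within a table of 6 libraries. This value was compared only within its table. The targeted gene, Elac2, did not differ beyond the spread between mice. At 10 weeks KO-TRAMP mice had a normalized count of 273 ± 25.0 and WT-TRAMP mice 318 ± 36.6, and the values were 256 ± 10.2 and 293 ± 37.3 at 30 weeks (mean ± SD, n = 3, exact two-sided permutation p = 0.2 at both ages). It was 267 ± 34.1 in A537T-TRAMP against 283 ± 32.9 at 10 weeks, and 279 ± 18.4 against 271 ± 33.5 at 30 weeks. Whole-gene counts therefore do not by themselves check the KO-TRAMP labels, since only exon 8 is removed and only in epithelium.

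Some libraries stood apart from their groups. The 6 seminal vesicle genes Svs1, Svs2, Svs3a, Svs4, Svs5 and Svs6 together reached 77277 RPM (reads of a gene as a rate of all reads in its library) in the A537T-TRAMP library 5, 11579 in library 6 and 414 in library 4, against 1.45 to 4.50 in WT-TRAMP at 10 weeks. At 30 weeks they ranged from 0.981 in WT-TRAMP library 11 to 47383 in A537T-TRAMP library 13. The 4 neuroendocrine genes Chga, Syp, Insm1 and Scg2 summed to 852 and 525 RPM in the KO-TRAMP libraries 17 and 18, but to 0.356 in library 16 and to between 0.245 and 53.1 in WT-TRAMP of that age. The log2 fold changes without libraries 5, 17 or 18 are given beside the main results these libraries bear on.

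The 10 genes lie at 5 chromosomes in GRCm38 coordinates. Cd3g (chr9:44969572-44980431, minus strand) and Cd3d (chr9:44981786-44987339, plus strand) stand head to head, 1354 bases apart, and Cd3e (chr9:44998740-45009627, minus strand) lies 11400 bases beyond Cd3d. Cd8b1 (chr6:71322788-71337494) and Cd8a (chr6:71373427-71379173) are neighbours on the plus strand, 35932 bases apart, and Cd4 lies on the same chromosome (chr6:124864692-124888221, minus strand). Gzmb (chr14:56258838-56262260, minus strand) and Trac (chr14:54220521-54224206, plus strand, annotated as a T cell receptor constant gene) share chromosome 14. Gzma is at chr13:113093825-113100981 on the minus strand and Nkg7 at chr7:43437073-43438249 on the plus strand. No member shared more than 3.92% of its 31-base words with any other gene (Cd8b1, with B4galt6), and the granzyme genes Gzmb and Gzmc shared 1.35% of those of Gzmb, and most reads of these genes can therefore be told from those of related genes.

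The RefSeq promoter table held 7 of the 10 genes. The upstream bases of the 3 granule genes are shown because their transcripts parted from each other at 30 weeks, with those of Cd3g, the most abundant CD3 chain, for comparison. Each is the run of 250 bases before the RefSeq start in GRCm38.p6, on the strand of the gene. Capitals mark matches on either strand to the core letters of RUNX sites (TGTGGT), AP-1 sites (TGANTCA), E-boxes (letters CAGNTG), sites of GATA factors (AGATAA) and the TATA box (TATAA).
Gzma, chr13:113100982-113101231: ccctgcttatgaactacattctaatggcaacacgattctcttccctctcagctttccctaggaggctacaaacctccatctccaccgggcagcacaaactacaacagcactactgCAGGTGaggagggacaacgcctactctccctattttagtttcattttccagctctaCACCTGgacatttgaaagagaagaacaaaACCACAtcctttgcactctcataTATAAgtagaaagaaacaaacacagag
Gzmb, chr14:56262335-56262584: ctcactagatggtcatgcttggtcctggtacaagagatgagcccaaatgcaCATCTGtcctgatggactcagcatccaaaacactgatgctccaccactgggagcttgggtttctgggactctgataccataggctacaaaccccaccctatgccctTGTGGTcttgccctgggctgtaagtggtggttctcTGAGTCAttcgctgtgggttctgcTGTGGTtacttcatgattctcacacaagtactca
Nkg7, chr7:43436888-43437137: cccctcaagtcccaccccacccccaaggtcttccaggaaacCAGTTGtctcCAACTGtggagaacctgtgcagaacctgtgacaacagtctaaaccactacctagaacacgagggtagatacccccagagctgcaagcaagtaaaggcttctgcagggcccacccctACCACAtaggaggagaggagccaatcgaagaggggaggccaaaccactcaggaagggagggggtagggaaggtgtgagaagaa
Cd3g, chr9:44980432-44980681: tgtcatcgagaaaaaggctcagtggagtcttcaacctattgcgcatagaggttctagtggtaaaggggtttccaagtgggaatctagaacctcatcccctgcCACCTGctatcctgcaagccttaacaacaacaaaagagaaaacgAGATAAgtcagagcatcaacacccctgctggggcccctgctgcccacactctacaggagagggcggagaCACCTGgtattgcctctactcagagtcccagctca
The Gzma stretch held 1 RUNX match, 2 E-boxes and a TATA match that begins 27 bases before the start. The Gzmb stretch held 2 RUNX matches, an AP-1 match between them, which begins 58 bases before the start, and 1 E-box, with no TATA match. Nkg7 held 1 RUNX match and 2 E-boxes, and Cd3g held 2 E-boxes and 1 GATA match. Of 32851 promoter stretches of this length, 14% held the RUNX letters, 6.75% the AP-1 letters, 44.8% the E-box letters, 9.99% the GATA letters and 22.8% the TATA letters. No match overlapped another in the 4 sequences shown. A match describes the letters only, and no binding was measured here.

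All 10 transcripts were scarce. Together they took between 24 reads, in A537T-TRAMP library 5, and 310 reads, in KO-TRAMP library 17, with a median of 150 reads per library. Of the 180 values, 90 were below 10 reads (50%). Gzmb was the most abundant, at 2 to 74 reads and a median of 38.5. Cd3g followed with a median of 19.5, Cd8a with 16.5, Cd4 and Nkg7 with 12.5 each, and Cd3e with 10.5. Trac (median 6), Cd3d (5.5), Cd8b1 (4) and Gzma (3.5) were near the detection floor, taken as 3 reads. Gzma was at or below 3 reads in 9 of 18 libraries, Cd8b1 in 8 and Cd3d in 4. Gzma differed from the other 3, however, in that it also gave the largest value of any member, 175 reads in library 17.

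Among the 180 values 5 were 0. Cd3d had no read in A537T-TRAMP library 5, Cd8b1 none in WT-TRAMP library 3 and A537T-TRAMP library 4, and Gzma none in KO-TRAMP library 8 and A537T-TRAMP library 15. A count of 0 allows up to 3 counts, which is 0.237 to 0.281 RPM at the depth of these libraries. These limits, like the read counts, cover counting error only.

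Per length, the order of levels was led by the granule genes Gzmb and Nkg7. The median over 18 libraries was 2.58 RPKM (RPM per kilobase of exon) for Gzmb (range 0.121 to 4.53) and 1.23 for Nkg7 (0.221 to 2.33). They were followed by Cd3g at 0.551, Trac at 0.538, Cd8a at 0.398, Cd4 at 0.276, Cd3d at 0.270, Gzma at 0.269, Cd8b1 at 0.222 and Cd3e at 0.218. Gzmb exceeded Nkg7 in 16 of 18 libraries, by 1.29 ± 1.03 RPKM (mean ± SD of the difference), and Nkg7 exceeded Cd3g in 17, by 0.672 ± 0.452. Every later pair of neighbours differed by less than the SD of its difference. Cd3e and Cd8b1 at the foot of the order, for example, were each the higher in many libraries, with Cd8b1 above Cd3e in 10 of 18.

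**Figure D1:**
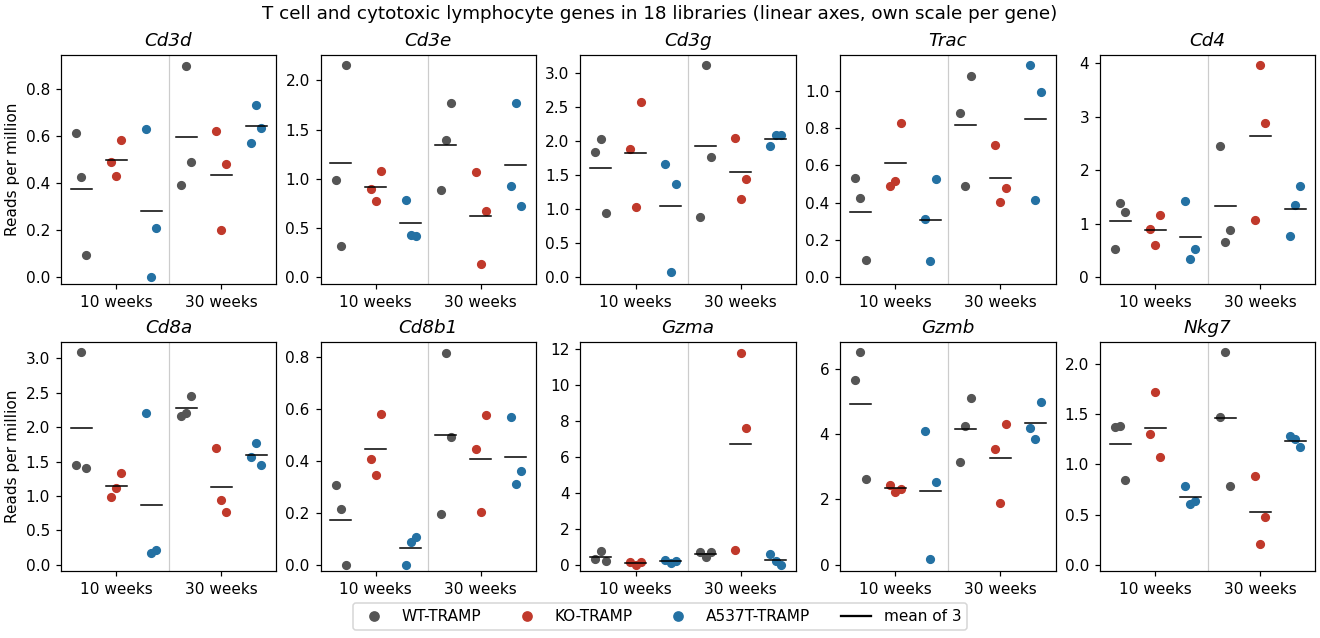
RPM of each of the 10 genes in all 18 libraries, grouped by line at 10 and at 30 weeks; each point is 1 mouse and each bar the mean of 3, with a linear axis of its own for each gene. Levels lay below 7 RPM except for Gzma in 2 KO-TRAMP libraries at 30 weeks, which reached 7.58 and 11.8.

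Counts were few enough for sampling to matter. A group mean of 24.7 reads, that of Cd8a in WT-TRAMP at 30 weeks, carries a counting error of 20.1%, and the 3 libraries there differed by 10.2% (coefficient of variation of the reads). At the other end, the mean of 2 reads of Gzma in A537T-TRAMP at 10 weeks carries a counting error of 70.7%. Gzma in KO-TRAMP at 30 weeks varied by 95.1% between mice against a counting error of 10.7%, and Cd4 in the same group by 70.4% against 17.2%. In these groups the mice differed by more than counting alone gives.

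Each line was compared with WT-TRAMP on log2(normalized count + 1) with limma, over all genes whose normalized count averaged at least 10 in the table. This scale understates the change of low genes. Of the 10 members, 6 passed this filter in the KO-TRAMP table and 3 in the A537T-TRAMP table at 10 weeks, and 7 and 6 passed in these at 30 weeks. Cd3g, Cd8a and Gzmb passed in all 4 tables, Cd3e, Cd4 and Nkg7 in 3 of 4, and Cd3d, Trac and Cd8b1 in none. Gzma passed only at 30 weeks in the KO-TRAMP table, through the KO-TRAMP libraries themselves, so that its passing there is tied to its difference. No member passed an adjusted p of 0.05 by limma or by edgeR in any of the 4 comparisons. By DESeq2, 1 passed, Gzma in KO-TRAMP at 30 weeks, a comparison in which DESeq2 called 4.76% of all genes (805 of 16900) and edgeR 0.0888% (15). Cd3e and Nkg7 in that table, Cd8a in the A537T-TRAMP table at 10 weeks and Cd4 in the KO-TRAMP table at 10 weeks had a mean of at least 10 in WT-TRAMP only, so that passing the filter is tied to their differences as well.

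**Figure D2:**
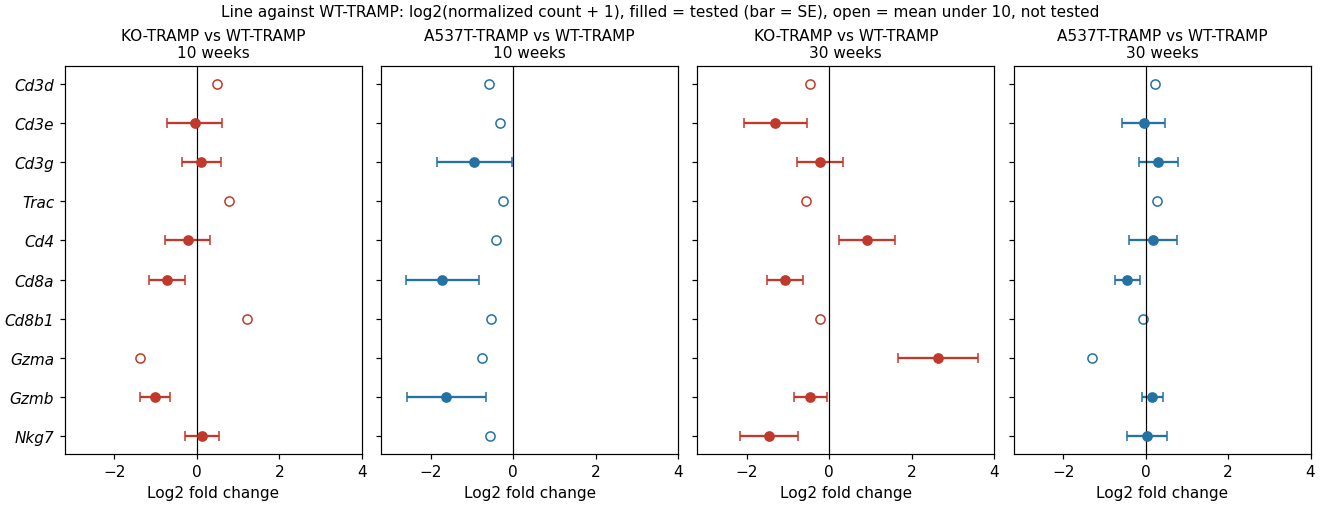
Log2 fold change of each gene relative to age-matched WT-TRAMP, on the log2(normalized count + 1) scale; filled points were tested with limma and their bars are the standard error, and open points had a mean normalized count under 10 and were not tested. Gzma in KO-TRAMP at 30 weeks lies farthest from 0, at 2.63, and the tested members of A537T-TRAMP at 30 weeks all lie within 0.5 of 0.

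At 10 weeks Gzmb had the smallest limma p of the 6 tested members in KO-TRAMP, without passing the adjusted threshold. The 3 WT-TRAMP mice (libraries 1 to 3) had normalized counts of 64.7, 76.2 and 30.8, and the 3 KO-TRAMP mice (libraries 7 to 9) had 27.0, 25.5 and 25.7. All 3 KO-TRAMP mice were lower than every WT-TRAMP mouse, although library 3 came close. The log2 fold change was −1.01 (SE 0.36; −0.76 without library 2 and −1.40 without library 3), with an unadjusted limma p of 0.0235 and an adjusted p of 0.716, and the exact permutation test gave p = 0.1, the smallest that 3 mice against 3 allow. Cd8a, the chain present in every CD8 dimer, was also lower in all 3, at 10.8, 12.7 and 14.7 against 16.6, 36.2 and 16.5. By limma the log2 fold change was −0.73 (SE 0.43, adjusted p = 0.803), and it was −0.36 without library 2, the WT-TRAMP mouse with the highest value.

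The remaining members of the KO-TRAMP table at 10 weeks had overlapping groups or few reads. Cd3g, which encodes the CD3 gamma chain, had log2 fold changes of 0.11, Cd3e, the epsilon chain, of −0.05, Cd4 of −0.22 and Nkg7 of 0.13, and each of the 4 changed sign when a single library was left out. Cd3g was then at −0.21 without library 3, Cd3e at 0.04 without library 8 and 0.54, under the filter, without library 3, Cd4 at 0.02 without library 2 and Nkg7 at −0.09 without library 3. Cd8b1 had 5, 4 and 7 reads in KO-TRAMP against 4, 2 and 0, and Gzma 2, 0 and 2 against 4, 7 and 2. On the normalized scale both of these sets were apart (exact permutation p = 0.1), Cd8b1 higher by 1.22 and Gzma lower, at −1.38 on the log2 scale, but at or near the floor. Of the 6 members past the filter, 2 were lower without overlap and 0 higher, where 6.26% of all genes tested were lower without overlap and 5.77% higher. No member was called by limma, against 0.0129% of all genes (2 of 15451), or by DESeq2, against 0.537%, and 1 of the 6 had an unadjusted p under 0.05, against 6.64% of all genes (1026). The median log2 fold change of the 6 was −0.14, and that of all genes −0.01.

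In A537T-TRAMP prostates at 10 weeks the members were low in library 5 above all. Gzmb had normalized counts of 42.3, 2.21 and 27.5 in libraries 4, 5 and 6, against 57.8, 67.9 and 27.3 in WT-TRAMP. Cd8a had 22.8, 2.21 and 2.29 against 15.3, 33.4 and 15.2, and Cd3g had 17.1, 1.11 and 14.9 against 18.5, 20.7 and 9.09. Library 5 was thus the lowest for all 3, library 6 was as low as library 5 for Cd8a alone, and library 4 lay within or near the WT-TRAMP range. The log2 fold changes were −1.62 for Gzmb (SE 0.96, limma adjusted p = 0.610), −1.72 for Cd8a (SE 0.88, adjusted p = 0.600) and −0.94 for Cd3g (SE 0.91, adjusted p = 0.725).

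Without library 5 these values were −0.47 for Gzmb, −1.23 for Cd8a and 0.06 for Cd3g. Library 5 is the library with 77277 RPM of seminal vesicle genes, and its 24 reads over all 10 members compare with 154 in library 4 and 64 in library 6. Luminal epithelial genes (Krt8, Krt18, Epcam and Pbsn) summed to 891 RPM there against 1752 and 1370 in libraries 4 and 6. The lower sum came from Krt8, Krt18 and Epcam. Pbsn was not lower, at 122 RPM in library 5 against 111 and 122 in libraries 4 and 6. It was at 28.0 to 49.6 in WT-TRAMP at 10 weeks. The part of the seminal vesicle RNA in the low member values was not tested. The 7 members under the filter, among them Cd3e, Cd4, Trac and Nkg7, had mean normalized counts of 1.29 to 9.72 over the 6 libraries. None of the 3 tested members had groups apart in either direction, where 6.92% of all genes were higher and 6.53% lower without overlap. Limma, edgeR and DESeq2 called none of them, and none had an unadjusted p under 0.05. Over all genes limma called 0.00648% (1 of 15438), DESeq2 called 0.959%, and 7.89% had an unadjusted p under 0.05.

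At 30 weeks the granzyme A gene stood out in KO-TRAMP prostates. Gzma had normalized counts of 9.26, 128 and 82.5 in KO-TRAMP libraries 16, 17 and 18, against 7.83, 4.80 and 7.98 in WT-TRAMP libraries 10, 11 and 12. These rest on 9, 175 and 79 reads against 7, 5 and 7. Libraries 17 and 18 were therefore far above every other library of the series, while library 16 was only just above WT-TRAMP. The ratio of the group means was 10.6, and the SD of the KO-TRAMP group, 59.7, was close to its mean of 73.1.

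The test of Gzma depended on the method. The log2 fold change was 2.63 (SE 0.98) with an adjusted p of 0.359 by limma, and 3.41 with an adjusted p of 0.285 by edgeR. DESeq2 gave 3.41 and an adjusted p of 0.0167. The gene entered these tests through its high libraries, so these p values are no independent support. Without library 16 the limma value was 3.75, and without libraries 17 and 18 it was 0.41 and the gene was under the filter. With either library 17 or library 18 alone left out it was 1.92 and 2.23. In the exact permutation test p was 0.1, the smallest possible.

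Gzmb, the other main granzyme of killer cells, was not higher with it. It was at 41.2, 20.4 and 47.0 in KO-TRAMP against 35.8, 49.9 and 59.3 in WT-TRAMP, overlapping groups that limma placed at −0.46 on the log2 scale (SE 0.40, adjusted p = 0.573; −0.20 without libraries 17 and 18). Nkg7, the granule membrane gene, was at 10.3, 2.19 and 5.22 against 16.8, 25.0 and 9.12, and was thus lowest in the 2 libraries in which Gzma was highest. Limma placed Nkg7 at −1.46 on the log2 scale (SE 0.70, adjusted p = 0.399), and at −0.57 without libraries 17 and 18. In library 17, Gzma took 56.5% of all reads of the 10 members and in library 18 it took 38.5%, against 6.21% in library 16 and 2.50% to 5.22% in WT-TRAMP at 30 weeks. Prf1, which encodes the pore-forming perforin of the same granules, was at 0.0674 and 0.480 RPM in libraries 17 and 18 against 0.295 to 0.490 in WT-TRAMP. Gzmk, a further granzyme gene, had no read in libraries 16 to 18. It was at 0 in 9 libraries of the series, however, and near the floor in WT-TRAMP at 30 weeks, at 0.196 to 0.245 RPM.

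The receptor chains were not raised in libraries 17 and 18. Cd3e was at 12.3, 1.46 and 7.31 in KO-TRAMP against 10.1, 16.3 and 20.5 in WT-TRAMP, which limma placed at −1.31 on the log2 scale (SE 0.78, adjusted p = 0.448) and which was −0.26 without libraries 17 and 18. Cd3g was at 23.7, 12.4 and 15.7 against 10.1, 36.5 and 20.5, which is within the WT-TRAMP range (log2 fold change −0.23, and 0.25 without libraries 17 and 18). Cd3d had 7, 3 and 5 reads against 4, 11 and 5, and Trac 8, 6 and 5 against 9, 6 and 11. The 4 chains together came to 4.45, 1.89 and 3.07 RPM in libraries 16 to 18, and to 3.04, 5.89 and 5.11 in libraries 10 to 12. The highest Gzma value thus fell in the library with the lowest sum of receptor chains at this age. Gzma was at 6.25 and 2.47 times that sum in libraries 17 and 18 and at 0 to 0.233 times in the other 16 libraries. The NK receptor genes Ncr1, Klrb1c, Klrd1 and Klrk1 summed to 9.34, 4.25 and 7.58 RPM in libraries 16 to 18. In libraries 10 to 12 they summed to 4.80, 4.50 and 5.11.

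The coreceptors Cd8a and Cd4 had log2 fold changes of opposite sign in the KO-TRAMP table at 30 weeks. Cd8a was at 19.5, 10.2 and 8.35 in KO-TRAMP against 24.6, 25.9 and 28.5 in WT-TRAMP, so that every KO-TRAMP mouse was lower. Its log2 fold change was −1.08 (SE 0.43), with an unadjusted limma p of 0.0461 and an adjusted p of 0.368. Without library 16 it was −1.41 with an adjusted limma p of 0.0495, in a fit that called 3064 genes against 36 with all libraries. Without libraries 17 and 18 it was −0.41. Cd4 was at 12.3, 43.0 and 31.3 against 28.0, 7.68 and 10.3. Libraries 17 and 18 were the highest, but WT-TRAMP library 10 was above KO-TRAMP library 16, and the groups overlapped (log2 fold change 0.92, SE 0.68, limma adjusted p = 0.519). Without libraries 17 and 18 it was −0.08.

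Within single libraries, the ratio of Cd4 to Cd8a reads was 4.21 and 3.75 in libraries 17 and 18. It was 0.632 in library 16 and between 0.296 and 1.14 in WT-TRAMP at 30 weeks. The values of 2.00 and 2.50 in A537T-TRAMP libraries 5 and 6 rest on 4 and 5 reads of Cd4 and 2 reads of Cd8a in each. Cd8b1 had 5, 3 and 6 reads in KO-TRAMP and 2, 10 and 5 in WT-TRAMP and did not separate the groups.

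**Figure D3:**
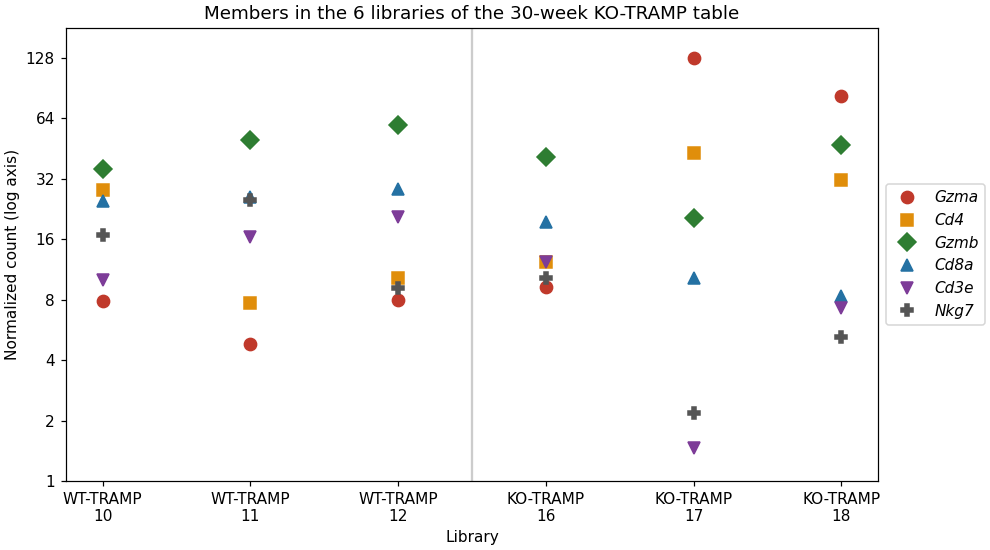
Normalized counts (log axis) of 6 members in the 3 WT-TRAMP and 3 KO-TRAMP libraries of the 30-week KO-TRAMP table; each symbol is 1 gene in 1 mouse. Gzma is at 4.80 to 9.26 in libraries 10, 11, 12 and 16 and at 128 and 82.5 in libraries 17 and 18, in which Cd8a, Cd3e and Nkg7 have their lowest values.

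Gzma is left out of the counts for this table because its passing the filter was tied to its difference. Of the 6 other members past the filter, 1 was lower without overlap (Cd8a) and 0 higher, where 10.8% of all genes were higher and 9.48% lower without overlap. Limma called none of the 6, against 0.213% of all genes (36 of 16900), and 1 of the 6 (Cd8a) had an unadjusted p under 0.05, against 13.5% of all genes (2289). Their median log2 fold change was −0.77 and that of all genes 0.01. This median includes Cd3e (mean normalized count 15.63 in WT-TRAMP and 7.04 in KO-TRAMP) and Nkg7 (16.95 and 5.90). Both passed the filter through the WT-TRAMP libraries, so the median and the counts are partly tied to the filter as well. Libraries 17 and 18 are those with 852 and 525 RPM of neuroendocrine genes. The macrophage genes Adgre1, Csf1r, Cd68, C1qa, C1qb and Mrc1 summed to 239, 206 and 239 in libraries 16 to 18 against 88.4 to 112 in WT-TRAMP, and dendritic cell genes (Flt3, Xcr1, Zbtb46 and Itgax) to 25.0, 35.8 and 28.0 against 15.5 to 16.8. Some dendritic cells of the mouse carry CD4 and CD8A. The macrophage and dendritic sums were above WT-TRAMP in each of libraries 16 to 18. The dendritic sum was higher in libraries 17 and 18 than in library 16. The part of the neuroendocrine, macrophage or dendritic RNA in the member values was not tested.

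The leukocyte gene Ptprc, which encodes CD45, was at 922, 410 and 514 normalized counts in KO-TRAMP at 30 weeks against 479, 498 and 487 in WT-TRAMP (log2 fold change 0.25, SE 0.29, limma adjusted p = 0.674). The KO-TRAMP library 16 had the most, and without libraries 17 and 18 the value was 0.92 (adjusted p = 0.177). The A537T-TRAMP mice had 269, 148 and 126 at 10 weeks against 305, 353 and 223, and were thus also low in libraries 5 and 6 (log2 fold change −0.75, SE 0.31, adjusted p = 0.600; −0.64 without library 5).

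In A537T-TRAMP prostates at 30 weeks the members were close to those of WT-TRAMP. Gzmb was at 48.3, 44.1 and 54.8 against 33.7, 45.7 and 54.4, and Cd3g at 22.1, 23.8 and 22.9 against 9.48, 33.2 and 19.2. Cd3e was at 10.7, 20.3 and 7.97 against 8.43, 13.5 and 17.1, Cd4 at 9.01, 15.5 and 18.9 against 25.3, 7.17 and 9.60, and Nkg7 at 14.7, 14.3 and 12.96 against 14.7, 22.4 and 7.47. In each of these 5 genes the groups overlapped, and the log2 fold changes lay between −0.05 and 0.31.

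Cd8a was the exception in the same table, at 18.02, 20.3 and 15.9 against 23.2, 25.1 and 26.7. All 3 A537T-TRAMP mice were lower than every WT-TRAMP mouse, with limma at −0.45 on the log2 scale (SE 0.30, adjusted p = 0.782), and the exact permutation p was 0.1. Of the 6 members past the filter 1 was lower without overlap and 0 higher, where 6.03% of all genes were lower and 7.36% higher. Gzma had 8, 2 and 0 reads against 7, 5 and 7. Limma, edgeR and DESeq2 called no member and none had an unadjusted p under 0.05; limma called 0% of all 16261 genes, of which 1173 (7.21%) had an unadjusted p under 0.05, edgeR called 0 and DESeq2 166 (1.02%).

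Cd8a had a negative log2 fold change in each of the 4 comparisons, −0.73 and −1.08 for KO-TRAMP at 10 and 30 weeks and −1.72 and −0.45 for A537T-TRAMP. The comparisons of an age share their WT-TRAMP mice and are not independent of each other, and no adjusted p was below 0.368. Gzmb, in contrast, was at −1.01 and −1.62 at 10 weeks and at −0.46 and 0.16 at 30 weeks.

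The change of a line's effect between the ages was tested as an interaction over the 12 libraries of its tables. For Gzma the KO-TRAMP effect at 30 weeks exceeded that at 10 weeks by 4.02 on the log2 scale (SE 1.30). Limma gave an unadjusted p of 0.0103 and an adjusted p of 0.290, edgeR an adjusted p of 0.229 and DESeq2 one of 0.0275. Without library 16 the limma difference was 5.13, and without libraries 17 and 18 it was 1.79 with the gene under the filter. Here too the gene passed the filter through libraries 17 and 18. The 3 reads or fewer in all KO-TRAMP mice at 10 weeks leave its effect at that age poorly measured. For Nkg7 the difference was −1.59 (SE 0.78, limma adjusted p = 0.407) and for Cd4 it was 1.14 (SE 0.87, adjusted p = 0.561). Without libraries 17 and 18 these were −0.69 and 0.14.

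Of the 6 members other than Gzma tested for KO-TRAMP, limma, edgeR and DESeq2 called 0 and none had an unadjusted p under 0.05. Limma called 0% of all 16431 genes, of which 2146 (13.1%) had an unadjusted p under 0.05, edgeR called 0 and DESeq2 389 (2.37%). For A537T-TRAMP 6 members were tested and all 6 differences were above 0, against 50.5% of all genes. The differences ran from 0.28 for Cd3e to 1.77 for Gzmb. The 6 members share their libraries, so these directions are not independent of each other. Limma, edgeR and DESeq2 called none of the 6, and none had an unadjusted limma p under 0.05. The value of Cd3e turned to −0.33 without library 3 and to −0.08 without library 14, both under the filter. Limma called 0% of 15941 genes, with 1014 (6.36%) at an unadjusted p under 0.05, edgeR 0 and DESeq2 49 (0.307%). Without library 5 the A537T-TRAMP difference of Gzmb was 0.62 and that of Cd3g went from 1.25 to 0.24.

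The wider set of 44 T and NK cell genes gave no call in either direction. It holds further receptor chains, proximal signalling genes, surface molecules, costimulatory and inhibitory receptors, transcription factors, cytotoxic effectors, NK receptors and T cell chemokines. Between 14 and 22 of the 44 passed the filter in a comparison, and 0 passed an adjusted p of 0.05 by limma, edgeR or DESeq2. At an unadjusted limma p under 0.05 there was 1 for KO-TRAMP and 0 for A537T-TRAMP at 10 weeks, and there were 2 for each line at 30 weeks. Over all genes the shares at that p were 6.64% and 7.89% at 10 weeks and 13.5% and 7.21% at 30 weeks. The numbers tested were 16 and 14 at 10 weeks and 22 for each line at 30 weeks. The median log2 fold changes of those tested were −0.11, −0.34, −0.28 and 0.01 in the order of KO-TRAMP and A537T-TRAMP at 10 and then at 30 weeks, against medians between −0.01 and 0.01 for all genes.

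At 10 weeks the smallest p in both lines belonged to Cxcl10, an interferon-induced chemokine that attracts T cells through CXCR3. It was at 138, 98.9 and 138 in KO-TRAMP against 445, 234 and 182 in WT-TRAMP, lower in all 3 mice (log2 fold change −1.10, SE 0.32, limma adjusted p = 0.716). In A537T-TRAMP it was at 212, 38.7 and 88.3 against 394, 207 and 160 (−1.38, SE 0.61, adjusted p = 0.600), lowest in library 5. The next were Klrk1, the activating receptor NKG2D of NK and CD8 T cells, at −0.86 for KO-TRAMP and −1.16 for A537T-TRAMP, and Tcf7, a transcription factor of naive T cells, at 0.82 and 1.72. Tcf7 was at 156 in library 5 and at 5.05 to 25.2 in the other 5 libraries of its table, while the receptor chains of library 5 were the lowest. Without library 5 the A537T-TRAMP values were −0.78 for Cxcl10, −0.79 for Klrk1 and 0.59 for Tcf7.

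At 30 weeks the smallest p values in KO-TRAMP were those of Thy1, Il7r and Bcl11b. Il7r, the interleukin 7 receptor, was at 37.0, 20.4 and 26.1 against 8.95, 14.4 and 15.96, and higher in all 3 mice (log2 fold change 1.03, SE 0.42, limma adjusted p = 0.369). Bcl11b, a transcription factor needed for T cell identity, was at 8.23, 5.83 and 9.40 against 20.1, 15.4 and 15.96, lower in all 3 (−1.05, SE 0.44, adjusted p = 0.372). Thy1, which stromal cells also express, was at 140, 86.0 and 149 against 73.9, 86.4 and 69.5 (0.67, SE 0.26, adjusted p = 0.365). Without libraries 17 and 18 the values were 1.47 for Il7r, −0.97 for Bcl11b and 0.87 for Thy1.

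In A537T-TRAMP at 30 weeks Bcl11b was again lower in all 3 mice, at 4.10, 8.35 and 3.99 against 17.9, 13.5 and 13.9 (−1.37, SE 0.53, limma adjusted p = 0.684), with the same WT-TRAMP mice on the other side. At 10 weeks Bcl11b, under the filter in both tables, was higher in all 3 A537T-TRAMP mice, at 4.88, 7.74 and 13.8 against 2.41, 2.30 and 3.03 (exact permutation p = 0.1), and was at 10.8, 1.96 and 14.7 in KO-TRAMP against 2.62, 2.50 and 2.20, where the groups overlapped. Cd2, an adhesion molecule of T and NK cells, was at 7.37, 8.35 and 2.99 against 14.8, 11.7 and 17.1 (−1.18, SE 0.55, adjusted p = 0.706). Tcf7 was higher in all 3, at 79.5, 72.7 and 77.8 against 64.3, 43.0 and 41.6 (0.64, SE 0.23, adjusted p = 0.673). In the interactions the smallest p values were those of Tcf7 (−1.62), Lef1 (−2.47) and Klrk1 (1.36) for KO-TRAMP, and of Cxcl10 (1.64), Klrk1 (1.73) and Havcr2 (−0.89), which encodes the inhibitory receptor TIM-3, for A537T-TRAMP, with adjusted p by limma between 0.327 and 0.729. Without libraries 17 and 18 the KO-TRAMP values were −1.03, −3.00 and 2.05, and without library 5 the A537T-TRAMP values were 1.05, 1.36 and −1.25, in the same order of genes.

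Other markers of immune and neighbouring cells set the scale for the members. Summed over a list, B cell genes came to 0 to 3.86 RPM over the 18 libraries, with Pax5 at 0 in 9 libraries and Ms4a1 in 7, and neutrophil genes to 0.375 to 3.56, with S100a8 and Ly6g at 0 in 15 and S100a9 in 14. Plasma cell genes came to 20.2 to 62.4, of which Derl3 gave most and Tnfrsf17 was at 0 in 16, and dendritic cell genes to 5.08 to 35.8. Genes of lymph node stroma and high endothelium came to 0.458 to 26.6, with Glycam1 at 0 in 16 and Madcam1 in 14. Of the 26.6, in library 5, Cr2 alone gave 25.8. Cr2 was at 4.48 to 25.8 in libraries 5, 9, 10, 12, 13 and 15, which had the highest seminal vesicle sums, and at most 1.82 in the others. Macrophage genes came to 45.1 to 239. The 4 T cell receptor and CD3 chains, at 0.605 to 5.89, were thus far below macrophage genes in every library. Luminal epithelial genes came to 891 to 2202.

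The pan-leukocyte sum of Ptprc, Laptm5, Coro1a, Cd52 and Cd53 ran from 38.1 to 402 RPM, but in library 5, the highest, Cd52 alone gave 381. Ptprc on its own ran from 11.6 in libraries 5 and 6 to 79.7 in library 16. Cd52 was at 55.8 to 381 RPM in libraries 5, 6, 9, 10, 12, 13 and 15, in which the seminal vesicle genes summed to 11579 or more, and at 2.53 to 17.6 in the other 11, in which they summed to 2479 or less.

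**Figure D4:**
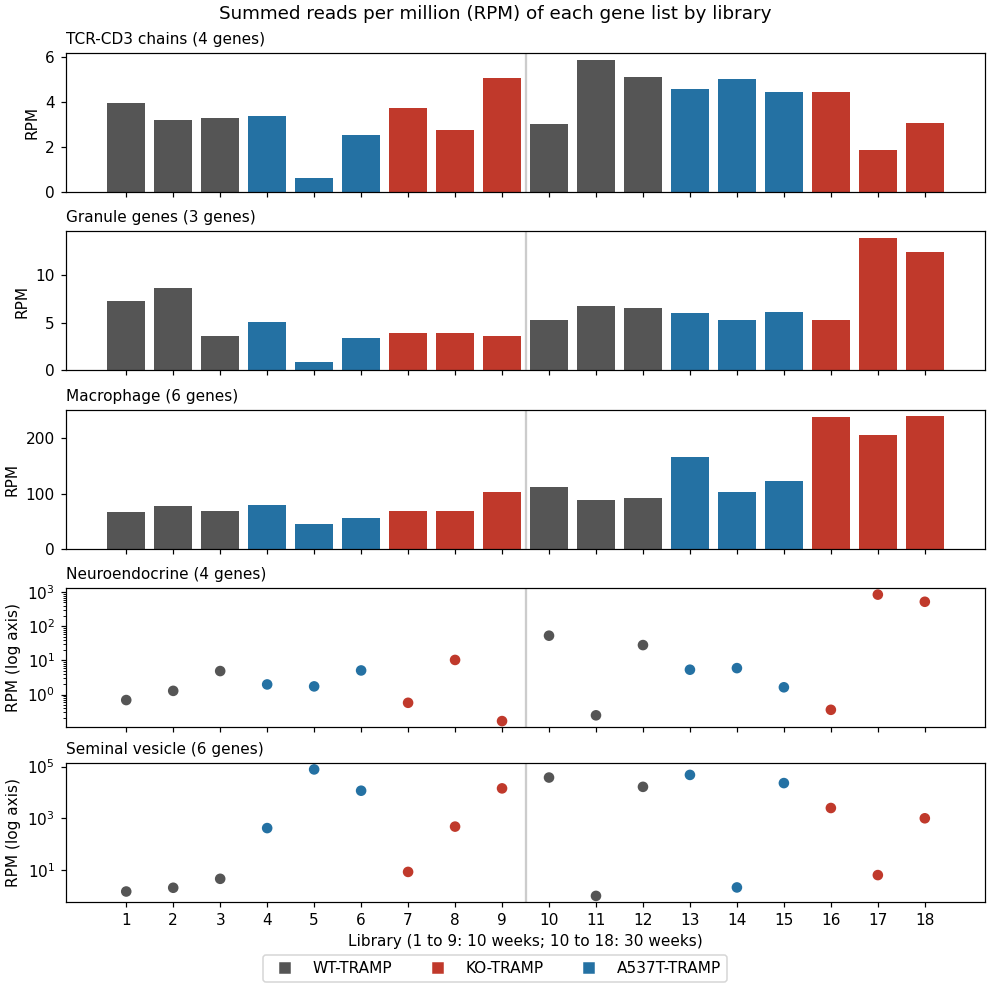
Summed RPM of the 4 T cell receptor and CD3 chains, the 3 granule genes, 6 macrophage, 4 neuroendocrine and 6 seminal vesicle genes in each of the 18 libraries, coloured by line; the lowest 2 panels have log axes. The receptor chains are lowest in library 5, at 0.605, and the granule genes highest in libraries 17 and 18, at 13.9 and 12.4.

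The genes whose pattern was most like that of the mean of Cd3d, Cd3e, Cd3g and Trac were Rnf128, Lgals3bp, Igf2r, Atxn1l and Map3k8. Their Pearson correlations over the 18 libraries, on log2(RPM + 1), were 0.902, 0.897, 0.884, 0.882 and 0.879 among 14971 genes compared. The likeness leaned on library 5, which had the lowest value of each of the 5 genes, and without it the correlations were 0.775 to 0.844. The 18 points share library depth and tissue composition.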

How the data were processed

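RNA-seq was made from prostate lobes (ventral and lateral) of 18 mice. The table headers give a library number and no group, so WT-TRAMP was assigned to the 3 columns shared by both tables of an age, and the remaining 3 to the line that names the table. The authors trimmed reads with Trim Galore 0.4.1 and cutadapt 1.18, aligned them with STAR 2.7.3a to the GRCm38.p6 genome with nuclear copies of mitochondrial sequence masked, and used Salmon with GENCODE gene models for stranded quantification. They normalized the counts with DESeq2 1.26 within 4 tables of 6 libraries each. The deposited values are normalized counts, a signal proportional to reads. The deposited tables of the authors' own comparisons (shrunken log2 fold changes, posterior SDs and s-values) were not used.

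Whole reads were recovered from the steps between low values in each library, and 100% of values came out as whole multiples (tolerance 0.001). The libraries held 9380174 to 14830104 reads. The WT-TRAMP mice of an age stand in both of its tables, and 30.9% to 37.6% of genes had the same recovered reads in both. Cd3e in library 3, for example, had 23 reads in the KO-TRAMP table and 19 in the A537T-TRAMP table. The counting errors given do not cover such differences. Each comparison used the reads of its own table. Symbols were matched for 55107 of 55469 identifiers through a GENCODE annotation of GRCm38 earlier than the authors' own. The count tests therefore ran on recovered reads.

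The main test was limma 3.58.1 in R 4.3.3 (trend, two-sided) on log2(normalized count + 1), for genes with a mean of at least 10, with Benjamini-Hochberg adjustment over all genes tested and a threshold of 0.05. Single members were compared with the exact two-sided permutation test, which cannot go below 0.1 with 3 mice against 3. Interactions used 12 libraries with an intercept for each table. Alternatives were a pseudocount of 0.5, no filter, TMM scaling, edgeR 4.0.16, DESeq2 1.42.0 and leaving out each library, and the scripts were tested on simulated data. Named were all 10 members, Elac2, Ptprc, the sums of the marker lists, the 3 genes with the smallest p of 44 further T and NK cell genes where none passed, and the 5 genes most alike in pattern. The members and lists were chosen with earlier results of these data known, and some genes first placed in the lists are not reported here. Levels across tables are RPM of recovered reads, with WT-TRAMP read from the KO-TRAMP tables. Counting limits cover counting error only.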

Additional observations from a re-analysis of the deposited data

Results flagged for a closer look

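Gzma is listed because its KO-TRAMP effect had opposite signs at the 2 ages. At 10 weeks all 3 KO-TRAMP mice (1.80, 0 and 1.84 normalized counts) were below all WT-TRAMP mice (3.50, 8.75 and 2.20), and at 30 weeks all 3 (9.26, 128 and 82.5) were above them (7.83, 4.80 and 7.98). The effect at 30 weeks minus that at 10 weeks was 4.02 on the log2 scale (SE 1.30, adjusted p = 0.290 by limma, 0.229 by edgeR and 0.0275 by DESeq2). It was 5.13 without library 16 and 1.79 without libraries 17 and 18. Gzma passed the filter through libraries 17 and 18, so these p values are no independent support. No KO-TRAMP mouse had more than 2 reads at 10 weeks, and WT-TRAMP library 3 had 2 as well. Only the size factors placed library 3 above the KO-TRAMP mice with 2 reads. All these values were below the floor of 3 reads, so the sign at 10 weeks is poorly measured.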

How the results depend on the processing

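No paired analysis was possible because the table headers carry no replicate number, so no replicate block could be fitted. The number of genes called by limma was small and moved with the method. For KO-TRAMP at 10 weeks it was 2, against 0 by edgeR, 83 by DESeq2 and 1 to 9 with single libraries left out (9 without library 3). For A537T-TRAMP at 10 weeks it was 1, against 0 with a pseudocount of 0.5, 0 by edgeR, 148 by DESeq2 and 0 to 65 (65 without library 4). For KO-TRAMP at 30 weeks it was 36, against 15 by edgeR, 805 by DESeq2 and 0 to 3064 (3064 without library 16, 0 without library 10, 12 or 18). For A537T-TRAMP at 30 weeks it was 0, against 166 by DESeq2 and 0 to 145 (145 without library 11). For the interactions it was 0, against 1 with no filter, 389 by DESeq2 and 0 to 1944 (1944 without library 16) in KO-TRAMP, and 49 by DESeq2 and 0 to 20 (20 without library 11) in A537T-TRAMP. Members called went from 0 to 1 by DESeq2 in KO-TRAMP at 30 weeks and in its interaction, and ranged over 0 to 2 and 0 to 1 with single libraries left out, with 2 (Gzma and Cd8a) and 1 (Gzma) without library 16. An alternative without libraries 17 and 18 was chosen after seeing the data and leaves 1 KO-TRAMP library, assumed to vary like the others. It gave 16 calls at 30 weeks and 5 in the interaction, and turned Cd3g to 0.25 and Cd4 to −0.084 at 30 weeks, and Cd3g to 0.14 and Cd8a to 0.32 in the interaction. Nkg7 in A537T-TRAMP at 30 weeks turned to −0.10 by edgeR and by DESeq2. With single libraries left out, the log2 fold changes that turned sign ranged in KO-TRAMP at 10 weeks from −0.70 to 0.54 (Cd3e), −0.21 to 0.44 (Cd3g), −0.62 to 0.019 (Cd4) and −0.086 to 0.28 (Nkg7), in A537T-TRAMP at 10 weeks from −1.49 to 0.064 (Cd3g, above 0 without library 5), in KO-TRAMP at 30 weeks from −0.69 to 0.19 (Cd3g, above 0 without library 11), in its interaction from −0.79 to 0.088 (Cd3g, without library 11) and in the A537T-TRAMP interaction from −0.33 to 0.97 (Cd3e, below 0 and under the filter without library 3 or 14). In A537T-TRAMP at 30 weeks they ranged from −0.40 to 0.22 (Cd3e), −0.13 to 0.72 (Cd3g), −0.17 to 0.68 (Cd4), −0.028 to 0.31 (Gzmb) and −0.36 to 0.38 (Nkg7). The cause of these shifts was not tested. Cd8a stayed negative in all 4 comparisons under every alternative run, and Gzma in KO-TRAMP at 30 weeks stayed positive. Over the 10 members and 4 comparisons, 7 values were at the smallest permutation p, and 7 on the log2 scale too. They belong to Cd8a, Gzma, Gzmb and Cd8b1, and those of Cd8b1 and Gzma at 10 weeks lay at or near the floor. Of all genes tested, 5.77% to 10.8% were higher without overlap and 6.03% to 9.48% lower, depending on the comparison. Of the member values 50% were below 10 reads, and Cd3d, Trac and Cd8b1 were under the filter in all 4 tables and were not tested by limma.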
